A study of Drosophila melanogaster with 4 samples.

Results

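The features described here are long stretches without called H3K4me1 on the 5 large chromosome arms of Drosophila melanogaster. They were selected on the positions of enriched regions in the list deposited for the series as a whole (the combined list): each is a gap of 30000 bases or more between consecutive enriched regions on X, 2L, 2R, 3L or 3R. Stretches before the first and after the last region of an arm were left out. By this rule 518 of 9404 gaps were long, and they lay among 9419 enriched regions of these arms, out of 9501 on all sequences. H3K4me1, the single methylation of lysine 4 on histone H3, was mapped by chromatin immunoprecipitation and sequencing (ChIP-seq) in nuclei from third-instar larvae of the wild-type strain Oregon-R. The series held 2 ChIP samples, replicates 1 and 2, both made with the antibody ab8895 (new lot 2), and 2 input samples that served as their backgrounds. Each ChIP sample has a list of enriched regions with a score per region as the authors deposited it. Coordinates are on FlyBase release 5. Read depth is unknown for all 3 lists.

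In flies the mark is written largely by Trithorax-related, a methyltransferase of the COMPASS family, and it is removed by the demethylase Lsd1. It is known for marking enhancers, both active and poised, and the flanks of active promoters. Sequence without it is known to include compacted heterochromatin near the centromeres, marked instead by methylation of lysine 9 on histone H3, and long silent domains within the arms that carry few active marks. The larval tissues were mixed, so a mark carried by few cells and a weak mark in many cells cannot be told apart. A gap in a list of called regions is a stretch with no call, and it may still hold signal below the authors' threshold. Sequence to which reads cannot be assigned also yields no call, and how much of it lies in each gap was not analysed here.

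Long gaps were a small part of the gaps by number and held most of the bases between regions. They made up 5.51% of all gaps in the combined list. They spanned 40.7 Mb, which was 34.2% of the 119.0 Mb of the 5 arms and 56.0% of all bases lying in gaps. The median gap of any length measured 1579 bases, and 90% of gaps were shorter than 16132 bases. The long gaps ran from 30.1 to 372 kb around a median of 59.3 kb, with the middle 50% between 40.5 and 93.6 kb. These values come from the list that the rule reads, and they are given as a description with no test. The 30000-base limit fell in a continuous range of lengths. The shortest long gaps were 3R:3267739-3297823 (30085 bases) and 3L:15723245-15753455 (30211 bases), and the longest gaps under the limit were 3R:3077185-3107173 (29989 bases) and 3L:17428671-17458650 (29980 bases).

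**Figure D1:**
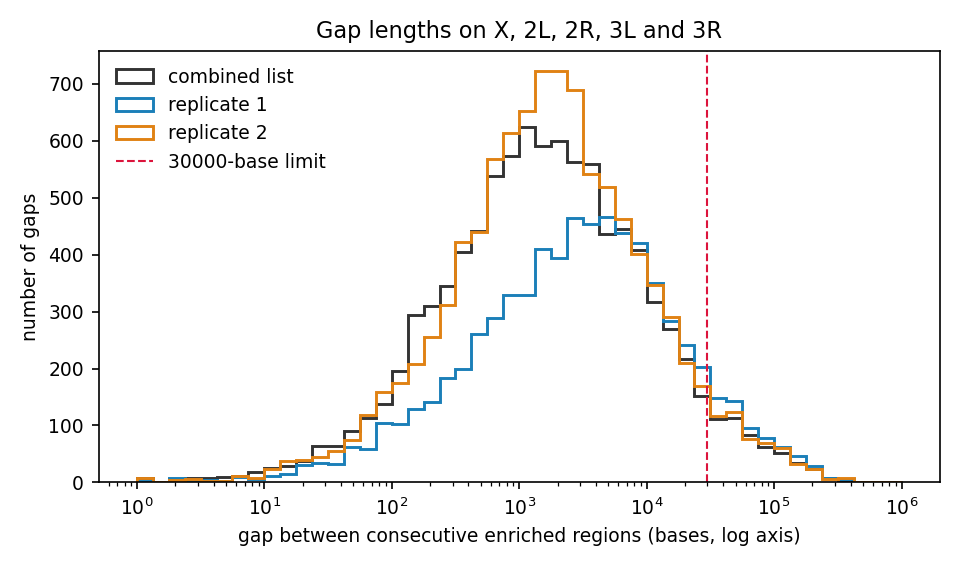
Number of gaps between consecutive enriched regions by length (log axis, bases) in the combined list and in each replicate list, with the 30000-base limit as a dashed line. The long gaps are the right-hand tail of a distribution with a single broad peak and a median of 1579 bases in the combined list.

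Each replicate list, searched by the same rule, also held long gaps. Replicate 1 held 643 (9.07% of its gaps), spanning 50.7 Mb. Replicate 2 held 544 (5.53% of its gaps), spanning 43.1 Mb. The mean was 593.5 ± 70.0 long gaps (SD, n = 2), and they took up 39.4% ± 4.47 of the arms (SD, n = 2). Replicate 1 had fewer regions (7100 against 9848), longer gaps (median 3044.5 against 1742 bases) and more long gaps. Typical long gaps were alike in size, with a median of 56.8 kb in replicate 1 and 57.1 kb in replicate 2.

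By length, 207 of the 518 gaps measured 30 to 50 kb, 189 measured 50 to 100 kb, 100 measured 100 to 200 kb and 22 measured 200 kb or more. Gaps of 100 to 200 kb held the largest share of the bases (33.8%), and those of 200 kb or more held 14.3%. The longest gap of all lay on 2R at 135599-507303 and spanned 372 kb. It was followed by X:21500938-21846710 (346 kb) and X:20558624-20898242 (340 kb). These 3 had their midpoints within 2 Mb of the centromere-facing end of their arm.

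Several gaps of similar length lay far out on the arms. The gap 2L:15915857-16252462 spanned 337 kb with its midpoint 6.93 Mb from the centromere-facing end. On 3R the longest gap, 3R:23816461-24147097 (331 kb), lay 24.0 Mb from that end. The gap 2L:16929164-17242044 (313 kb) held no base under a region of either replicate. The other members of the 10 longest were 2R:1250272-1541451 (291 kb), 2R:703940-978767 (275 kb), 2L:11527487-11796595 (269 kb) and 2L:14714968-14982228 (267 kb). The longest gap on 3L, 3L:9967626-10194782, measured 227 kb.

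The arms held long gaps at similar density, while their share of the arm differed. In the combined list there were 103 on X, 100 on 2L, 89 on 2R, 104 on 3L and 122 on 3R, or 4.21 (2R) to 4.59 (X) per Mb. Long gaps took up 40.1% of 2L and 37.9% of X, against 32.9% of 3R, 31.1% of 2R and 29.6% of 3L. These shares are of the full arm. The rule leaves out the last 1600 kb of 3L, which lowers its share, so the order of 3L and 2R is not settled. The median long gap measured 66.2 kb on 2L, 63.4 kb on X, 60.8 kb on 3R, 53.5 kb on 3L and 50.0 kb on 2R. Gaps of 200 kb or more numbered 9 on 2L, 4 on X and 3 on each of the other arms. In replicate 1 they numbered 7 on X, 6 each on 2L and 3L, 5 on 2R and 4 on 3R. In replicate 2 they numbered 9 on 2L, 5 on X, 4 each on 3L and 3R and 2 on 2R. The median long gap was longer on X than on 2L in both replicates, at 63.8 against 60.4 kb and 67.8 against 62.8 kb.

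By share of the full arm, 2L and X stood above the other arms in both replicate lists. On 2L the share was 48.9% in replicate 1 and 43.4% in replicate 2, a mean of 46.1% ± 3.90 (SD, n = 2). On X it was 45.5% and 40.5%, a mean of 43.0% ± 3.57 (SD, n = 2). The values were 41.3% and 35.3% on 3R, 39.2% and 31.7% on 3L, and 38.2% and 30.6% on 2R. Within each replicate 2L was the highest arm and 2R the lowest. The arm lengths include end stretches that the rule leaves out. In replicate 2 these were 670 kb at the start of 2R and 1600 kb at the end of 3L. In replicate 1 the last 878 kb of 3L were left out. This lowers the share of 3L in both replicates and that of 2R in replicate 2. In replicate 1 the end stretches of 2R were only 18.6 and 4.23 kb. Within a replicate, the share on 2L exceeded that on X by 3.34 percentage points in replicate 1 and 2.88 in replicate 2, a mean of 3.11 ± 0.329 (SD, n = 2). The share on X exceeded that on 3R by 4.19 and 5.16 points. Outside the 2 Mb next to the centromere these 2 arms were nearly level. There X and 3R had 42.0% and 42.2% in replicate 1, and 36.6% and 35.9% in replicate 2. Replicate 1 was above replicate 2 on every arm. Both values on 2L lay above both values on 3R, 3L and 2R. With 2 samples no exact test can pass 0.05.

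**Figure D2:**
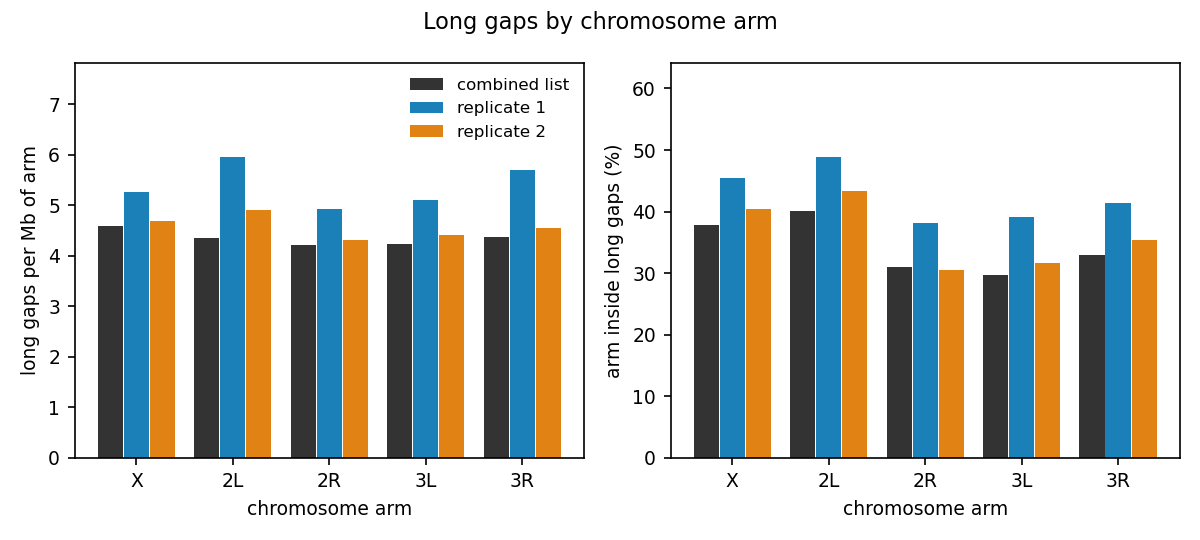
Long gaps per Mb of arm (left) and percentage of the arm inside long gaps (right) for X, 2L, 2R, 3L and 3R, with a bar for the combined list and for each replicate list searched by the same rule. The share is highest on 2L in each list, at 40.1% in the combined list, and replicate 1 is above replicate 2 on every arm.

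By number, long gaps were spread along the arms much as the sequence itself. Of the 518, 44 (8.49%) had their midpoint in the 2 Mb next to the centromere and 23 (4.44%) in the 1 Mb next to the telomere. Over the 5 arms these zones make up 10.0 and 5.0 of the 119.0 Mb. The number per Mb was nearly level, at 4.40 next to the centromere, 4.60 next to the telomere and 4.34 over the rest. The share of sequence was not level. Long gaps took up 51.7% of the 2 Mb next to the centromere, 33.0% of the rest and 24.0% of the 1 Mb next to the telomere. In replicate 1 these shares were 60.7%, 41.4% and 30.6%, and in replicate 2 they were 46.0%, 35.7% and 28.8%. The order was the same in each list.

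The arms differed in their sequence next to the centromere. Long gaps filled 78.2% of the 2 Mb on 2R, 76.8% on X and 66.4% on 2L in the combined list. They filled 27.3% on 3R, which was below the 33.3% over the rest of 3R. On 3L they filled 9.68%, because the last 1600 kb of that arm lie beyond its last combined region and the rule leaves them out. Replicate 1 has regions within that stretch, and there its own longest gap, 3L:22991924-23664638, spanned 673 kb. A similar limit applied to replicate 2 on 2R, where the first region began only after 670 kb.

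In windows of 1 Mb, long gaps took up between 0% and 94.2% of the sequence around a median of 33.6% over 117 full windows. The windows with the most were 2R:1-1000000 (94.2%), 2L:22000001-23000000 (87.5%), 2L:17000001-18000000 (80.6%), X:20000001-21000000 (71.7%) and X:21000001-22000000 (71.1%). The window 2L:17000001-18000000 was the one of these away from the centromere, and it was filled to 80.9% in replicate 1 and 82.2% in replicate 2. In 2R:1-1000000 the replicates parted, at 90.2% and 32.7%, since most of that window lies before the first region of replicate 2. Long gaps filled 50% or more of 16 windows, and 11 of these began at least 2 Mb from the centromere-facing end, 4 of them on 3R, 3 on 3L and 2 each on X and 2L.

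No base of a long gap fell in 2 windows, 3L:23000001-24000000, which lies beyond the last combined region, and 3R:12000001-13000000. The latter lay inside the longest stretch without a long gap, 3R:11612070-13047292, which spanned 1435 kb and held 184 enriched regions. Replicate 2 also had no long gap in 3R:12000001-13000000, and in replicate 1 long gaps took up 14.2% of it. Across the 117 windows the Spearman rho between the replicates was 0.83, given as a description, since neighbouring windows share gaps.

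**Figure D3:**
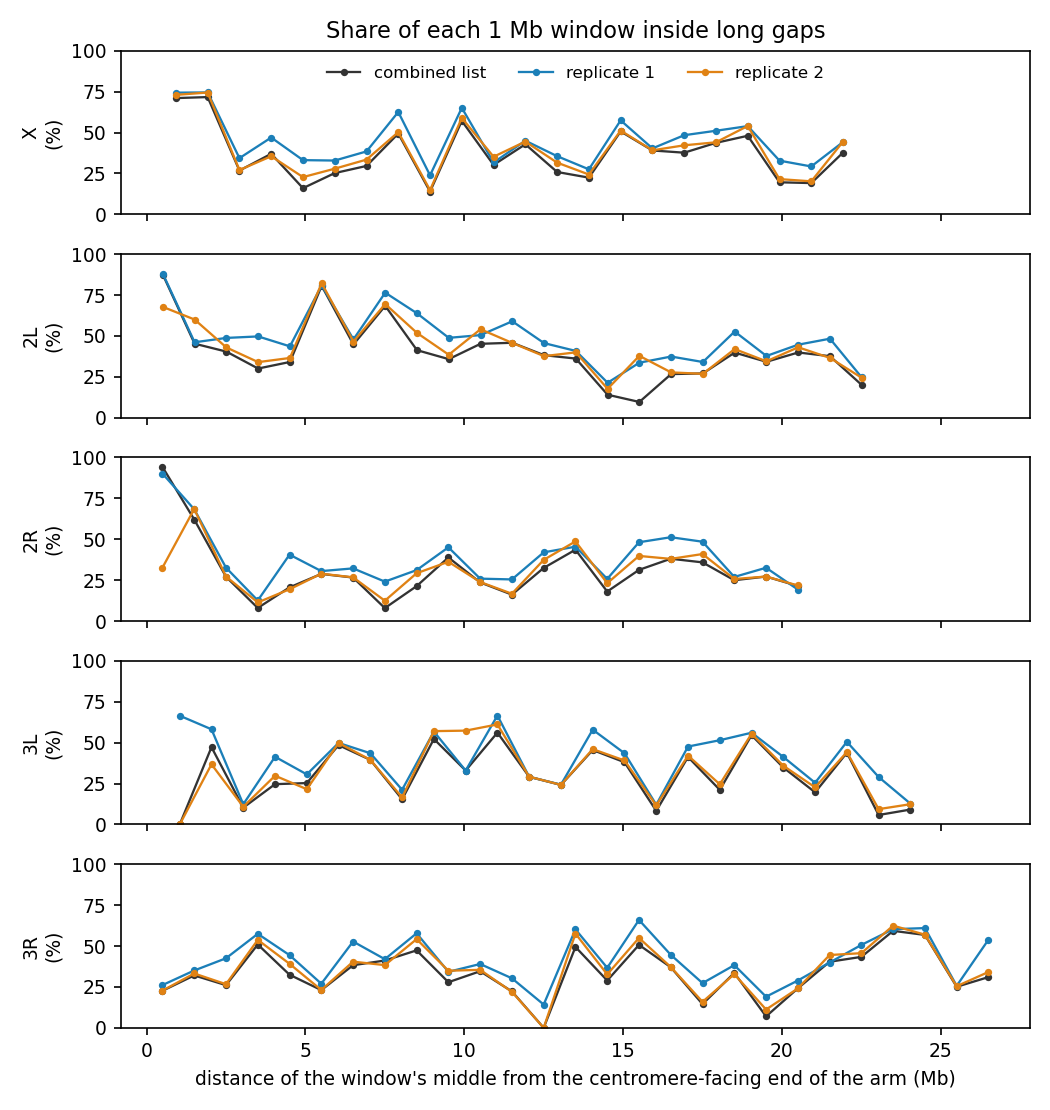
Percentage of each full 1 Mb window inside long gaps (vertical axis) against the distance of the window's middle from the centromere-facing end of the arm (Mb), with a panel for each arm and a line for the combined list and each replicate. Values near the centromere reach 94.2% on 2R, and windows far out on 2L, 3L, 3R and X pass 50% as well.

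A part of the long gaps lay side by side. Of the 518, 137 (26.4%, 95% Wilson interval 22.8 to 30.4%) had another long gap next to them, with a single enriched region in between. Among all gaps 10.6% had a long gap next to them, and among shorter gaps 9.71% did. In replicate 1 the shares were 28.0% of long gaps and 16.1% of shorter gaps, and in replicate 2 they were 22.1% and 9.87%. The mean over the replicates was 25.03% ± 4.20 (SD, n = 2). A gap directly beside a long gap had a median length of 2776 bases in the combined list, against 1579 bases over all gaps. The intervals cover counting error only. The interval here treats gaps as independent, although 2 long gaps side by side are always counted together, so it may be too narrow.

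The neighbouring gaps formed 58 pairs and 7 runs of 3, and no run was longer than 3. The widest runs lay near centromeres. On 2R, 3 long gaps of 114, 372 and 161 kb filled 2R:20278-670277, a span of 650.0 kb with 2.67 kb of enriched sequence in 2 regions. On 2L, gaps of 39.4, 261 and 223 kb filled 2L:22432904-22959231, a span of 526 kb with 3.70 kb of enriched sequence. Another run on 2R, 2R:1034631-1541451, spanned 507 kb and held 3.78 kb of enriched sequence. The 6 regions that split these runs were 1117 to 2029 bases wide, and their scores lay in the lower 40% of the combined list. Of these 6, 2R:1181754-1183782 and 2L:22472307-22474134 were met by both replicates. The region 2R:134482-135598 was met by neither, and the rest were met by a single replicate.

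Between long gaps lay 513 blocks of marked sequence. The median block was 86.0 kb long and held 10 enriched regions, and the middle 50% measured 26.8 to 196 kb. A single region made up 72 blocks, 104 held 2 to 5 regions, 182 held 6 to 20, and 155 held more than 20. Over all blocks the combined regions covered 58.1% of the bases, against 37.4% of the arms. The replicates covered 45.3% and 50.7% of the same blocks, against 29.4% and 32.8% of the arms. Values above those of the arms follow from the rule. It keeps the long gaps, which hold no combined region and few replicate bases, out of the blocks.

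The replicate lists covered little of the long gaps. Replicate 1 had 0.343% of the long-gap bases under its enriched regions and replicate 2 had 0.300%, a mean of 0.322% ± 0.0302 (SD, n = 2). In shorter gaps the values were 4.22% and 3.59%. Shorter gaps have more borders per base, and most replicate regions that met a long gap did so at its border. The length rule thus favours a lower percentage in long gaps, and the contrast is no measure of emptiness. The mean depends on which combined regions count. It was 4.71% when gaps were drawn between the higher-scoring 50% of combined regions, and 0.500% when combined regions narrower than 1301 bases were dropped. The combined list belongs to this same pair of ChIP samples, so a low value is not independent support for the absence of the mark. Per gap, coverage reached at most 11.7% in replicate 1 and 7.25% in replicate 2. It was above 1% in 59 gaps for replicate 1 and in 62 for replicate 2. The matching shares over all gaps were not computed.

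Counted by gap and not by base, contact with replicate regions was common. No base under replicate 1 was found in 307 long gaps (59.3%, 95% Wilson interval 55.0 to 63.4%), against 60.8% of all gaps. No base under replicate 2 was found in 189 (36.5%, interval 32.5 to 40.7%), against 42.3% of all gaps. Neither replicate touched 77 long gaps (14.9%, interval 12.1 to 18.2%), against 15.7% of all gaps. These shares lie near or below those of all gaps, and most contacts were at the borders. The intervals treat gaps as independent, although neighbouring gaps can share a bordering region, so they may be too narrow.

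At the borders, replicate regions reached a short way into the gap. In replicate 1, 200 of the 247 regions that met a long gap also extended beyond it, and their median reach inside was 146.5 bases. In replicate 2, 380 of 432 did so, with a median reach of 54 bases. The largest reach was 2468 bases in replicate 1 and 1414 in replicate 2.

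Replicate regions lying wholly within a long gap were few and had low median widths. Replicate 1 had 47 in 41 gaps, which was 0.662% of its regions, and replicate 2 had 52 in 47 gaps, or 0.528%. Their median width was 1586 bases in replicate 1, where all regions had a median of 3304 bases. In replicate 2 it was 1378 bases, against 2612 bases over all regions. Their median score stood at percentile 6.56 of the list of replicate 1 and at percentile 32.2 of that of replicate 2. Among regions under 2 kb the replicates went opposite ways. In replicate 1 the 39 inside long gaps had a median percentile of 4.38, against 11.8 for all regions under 2 kb, and in replicate 2 the 48 inside had 31.5 against 17.7. Within 10 kb of a border lay 27 of the 47 and 32 of the 52. How much long-gap sequence lies that near a border was not computed, so these counts show no preference. No region of either replicate lay wholly inside 434 of the 518 long gaps (83.8%, interval 80.4 to 86.7%). The share over all gaps was not computed. Many shorter gaps are under 1301 bases, the width of the narrowest replicate region, and cannot hold one. The 83.8% is therefore no sign that long gaps are emptier than others.

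The regions inside gaps hardly recurred between replicates. Of the 47 in replicate 1, 1 overlapped a region of replicate 2 by at least 1 base, whereas 90.6% of all replicate 1 regions overlapped one. Of the 52 in replicate 2, 1 overlapped a region of replicate 1, against 75.3% of all its regions. A place marked in both replicates would tend to be in the combined list too, so this is a description of the gaps and not a test. The shared place was in the gap 3R:13790995-13855091, at 3R:13847254-13848824 in replicate 1 (score 0.11) and 3R:13847174-13848916 in replicate 2 (score 0.02). It was singled out after its values were seen.

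The gaps with the highest percentage under replicate regions were among the shorter ones. For replicate 1 they were X:190017-235277 (11.7% covered, by 4 regions), 3L:17850852-17886372 (8.34%) and X:83357-138111 (5.89%). Replicate 2 covered 0%, 0.146% and 0.137% of them. For replicate 2 they were 3R:7201259-7233184 (7.25%), 3L:19093826-19141826 (6.95%) and 3L:22665617-22707846 (6.74%), and replicate 1 covered 0% of each. In each of these 6 gaps nearly all of the covered sequence came from a single replicate. By bases, the 291 kb gap 2R:1250272-1541451 held more than any of them, with 6024 bases in 5 regions of replicate 1 and 0 bases of replicate 2. The longest stretch of each gap without a region in any of the 3 lists made up a median of 99.8% of the gap. It was at least 30000 bases long in 498 of the 518 gaps and under 50% of the gap in 4.

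Long gaps found in each replicate list by the same rule largely coincided. Those of replicates 1 and 2 shared 40.6 Mb, or 80.1% of the long-gap bases in replicate 1 and 94.0% in replicate 2. Of the 643 long gaps of replicate 1, 507 (78.8%) met one of replicate 2, and of the 544 of replicate 2, 514 (94.5%) met one of replicate 1. Those unmatched were mostly near the limit, with a median of 37.8 kb for the 136 of replicate 1 and 34.9 kb for the 30 of replicate 2. At 100 kb or more, 147 of 151 in replicate 1 and 130 of 130 in replicate 2 were met. Of the 4 unmatched gaps of this size in replicate 1, 3 lay in terminal stretches of replicate 2, and the other was 2L:13907734-14010540 (103 kb). Those named here were picked because they were unmatched.

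Of the 518 long gaps of the combined list, 496 (95.8%) met long gaps of both replicates and 0 met neither. Replicate 1 did not match 7, each under 50 kb. Replicate 2 did not match 15, of which 11 were under 50 kb. The other 4 were 2R:20278-134481, 2R:135599-507303, 2R:508856-670277 and 2L:22736633-22959231, which lie in terminal stretches of replicate 2. The longest gap of the combined list is thus among them, with 0 bases under replicate 2.

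Coverage around the edges of long gaps is given as a description, since the rule places every edge at the end of a combined region and leaves the gap empty. In the 10 kb just outside an edge, combined regions covered 57.0% of the bases, a value that includes the bordering region itself. From 10 to 20 kb out the share was 42.8%, and from 50 to 60 kb it was 37.6%, next to 37.4% over the arms. The replicates took the same course, with 43.0%, 34.5% and 29.6% in replicate 1 and 46.8%, 37.2% and 33.3% in replicate 2. Within the gap the replicates covered 0.990% and 0.878% of the outer 10 kb and 0.127% and 0.187% of the next 10 kb. Beyond 50 kb the values lay near those of the arms. The lowest up to 100 kb was 37.5% in the combined list, and in replicate 1 it was 29.2%, against 29.4% over the arms.

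**Figure D4:**
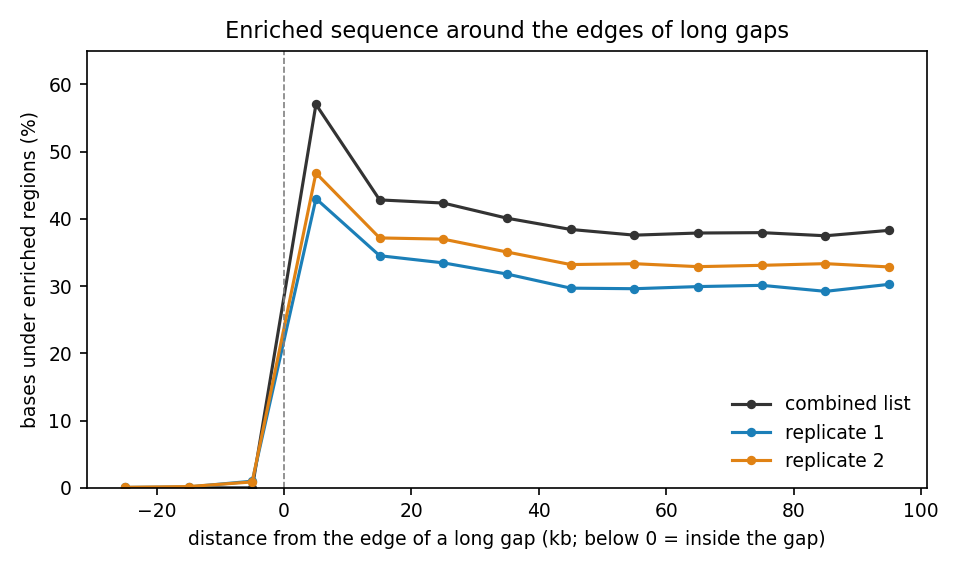
Percentage of bases under enriched regions in 10 kb bins (vertical axis) against distance from the edge of a long gap (kb, negative inside), both edges of the 518 gaps pooled, for the combined list and each replicate. Coverage is 0% by rule inside the gap in the combined list, is highest in the 10 kb outside the edge (57.0%) and stands at 37.6% from 50 to 60 kb.

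The regions that border long gaps had a lower median width and a lower median score than regions elsewhere. In the combined list 964 regions bordered a long gap, with a median width of 2352.5 bases against 2856 bases for the other 8455. Their median score was 0.44 against 0.47, as the authors deposited it. A width of 10 kb or more was found in 75 of the 964 (7.78%), against 11.1% of all regions. A width under 2 kb was found in 374 (38.8%), against 34.6% of all regions. Both replicates met 58.5% of the bordering regions and 61.1% of the others. Regions are not independent replicates, and the borders were fixed by the rule, so no test is given.

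Both replicate lists, taken with their own long gaps, gave the same direction. In replicate 1 the median width was 2953 bases for 1187 bordering regions and 3358 bases for the rest. In replicate 2 it was 2218 bases for 1024 bordering regions and 2672 bases for the rest. The median score percentile of bordering regions was 45.5 in the combined list, 44.4 in replicate 1 and 42.8 in replicate 2, where 50 is the middle of a list. The bordering regions thus had medians below the middle of their list in all 3.

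The difference was largest for regions that stand alone between long gaps. In the combined list 72 regions had a long gap on both sides, 17 on 2L, 16 on 2R, 15 on 3L and 12 each on 3R and X. Their median width was 1789 bases and their median score percentile 39.3, and 65.3% of them were under 2 kb wide. With a long gap on 1 side only, the medians were 2427.5 bases and percentile 46.2. In replicate 1, the 99 regions with long gaps on both sides had medians of 1986 bases and percentile 29.6. In replicate 2, 64 such regions had 1758 bases and 29.3. Of the 72, 31 (43.1%) were met by both replicates, 8 by replicate 1 alone, 20 by replicate 2 alone and 13 (18.1%) by neither. Among all regions 60.8% were met by both and 8.45% by neither. The widest, 3L:7230988-7258200, measured 27.2 kb, and replicates 1 and 2 covered 79.0% and 96.6% of it.

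**Figure D5:**
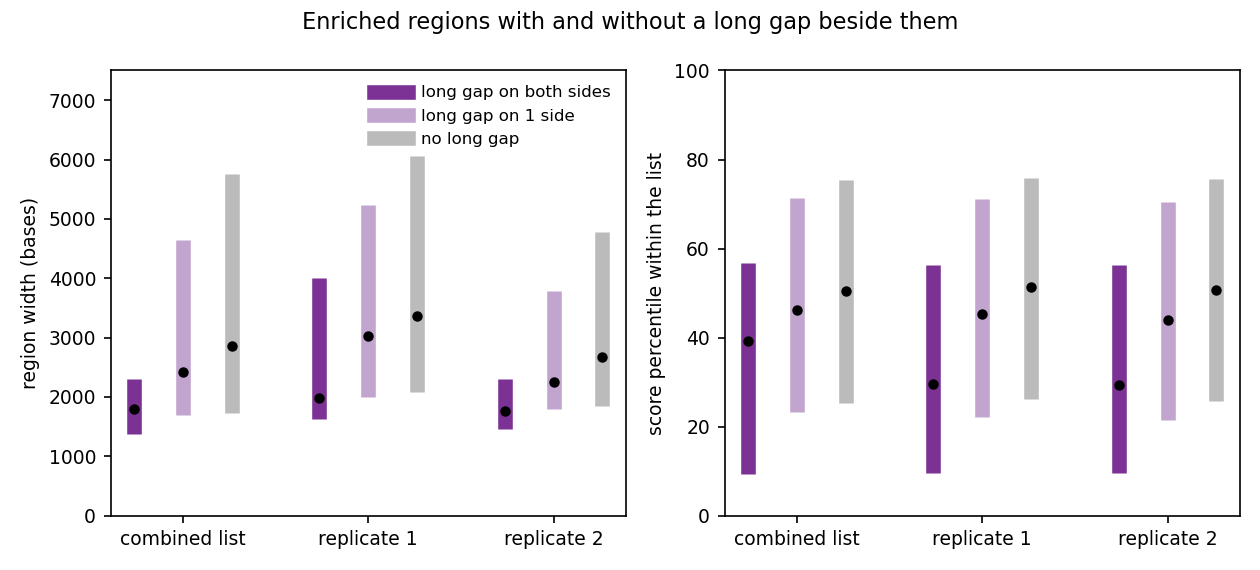
Width in bases (left) and score percentile within its own list (right) of enriched regions with a long gap on both sides, on 1 side or on neither, in the combined list and each replicate list. Bars span the middle 50% of regions and dots are medians, which are lowest for regions between long gaps in each list (1789 bases in the combined list).

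Width and score went together at the borders. Among regions under 2 kb the median score was 0.30 for bordering regions and 0.31 for others in the combined list. From 2 to 5 kb it was 0.51 for both, and for 10 kb or more it was 0.95 and 0.96. From 5 to 10 kb it was 0.74 against 0.77. In replicate 1 the median percentile was 9.72 beside long gaps and 12.3 elsewhere under 2 kb, and 90.1 against 89.3 at 10 kb or more. In replicate 2 the values under 2 kb were percentile 17.5 and 17.7. From 5 to 10 kb the bordering regions were lower in both, at percentile 71.8 against 74.7 in replicate 1 and 75.9 against 79.1 in replicate 2.

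The median width and score of borders varied little with the length of the gap. Here a region counts once for each long gap that it borders. The median width of bordering regions was 2305.5 bases for gaps of 30 to 50 kb, 2205.5 for 50 to 100 kb, 2356.5 for 100 to 200 kb and 2217.5 for 200 kb or more. Their median scores were 0.43, 0.44, 0.44 and 0.41. Left and right borders were alike, with medians of 2247.5 and 2283.5 bases. The 2 borders of a gap often differed from each other, with a median of 1752 bases for the narrower and 3880.5 bases for the wider. Both borders were under 2 kb in 101 gaps, at least 1 was 10 kb or wider in 73, and both were in 3. At least 1 was 10 kb or wider in 18.0% of gaps of 100 kb or more, against 14.1% of all long gaps. The shares over all gaps were not computed, so these counts are a description only.

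Some borders were broad domains. The widest were 3R:7027849-7072909 (45.1 kb, score 1.08), X:18135074-18180121 (45.0 kb, score 1.17) and X:10607756-10643070 (35.3 kb, score 1.03). Replicate 1 covered 89.0% to 97.4% of them and replicate 2 covered 89.2% to 99.5%. At the other end, 9 bordering regions had the lowest width, 1001 bases. Among these 9, replicate 2 covered 100% of 2R:1732152-1733152, while X:290300-291300 and X:2400681-2401681 were met by neither replicate.

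The highest scores at borders belonged to narrow regions without a counterpart in the replicates. They were 2R:4289485-4290485 (score 3.18), 3L:22616279-22617280 (score 2.66, with a long gap on both sides) and X:21966932-21967936 (score 1.86), 1001 to 1005 bases wide. Counted after these values were seen, 6 regions of the combined list were narrower than 1100 bases with a score above 1.5. Of these 6, 5 bordered a long gap and none was met by either replicate. Among all 9419 regions, 964 bordered a long gap and 8.45% were met by neither replicate. The remaining region, X:10445349-10446349, bordered no long gap and tied the highest score (3.18). Both cut-offs were set after the values were seen, so the count is a description only.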

How the data were processed

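Per the submitters' processing notes, reads were aligned with Bowtie 0.12.7, and per the file headers coordinates are on FlyBase release 5. No source used here gives the region caller, its threshold or the way the combined list was made. The score of each region is the authors' deposited value, on a scale that no source used here states, and it was compared within a list only. The labels do not say that the replicates came from separate cultures.

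Regions named depleted were set aside. Gaps, lengths and overlaps (at least 1 shared base) were computed in Python 3.11.15 with pandas 2.3.3, NumPy 2.4.6 and SciPy 1.17.1; Matplotlib 3.10.9 drew the plots. Gap, coverage and neighbour counts were right in 20 of 20 simulated lists. The centromere-facing end was the start of the coordinates on 2R and 3R and their end on X, 2L and 3L. Because the rule reads the lists and there are 2 samples in 1 group, values are described with no test. Named were the 10 longest gaps, the longest of each arm, the 2 gaps on each side of the limit, the 3 longest runs, the 5 fullest windows, the 3 gaps most covered by each replicate, and the 3 widest, narrowest and highest-scoring bordering regions. Members, lists and rules were chosen with earlier results of these data known. Gene annotation and sequence of release 5 were not used here, so no gene is named.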

Additional observations from a re-analysis of the deposited data

Results flagged for a closer look

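Regions of depletion entered no comparison of the report, and 5 of the 17 in the combined list on these arms (29.4%) lay inside long gaps. They are listed because they are data that the report did not use. Long gaps take up 34.2% of the arms, so the count is no sign that depleted regions favour them. They were 2R:10532496-10534035, 2R:15613327-15615046, 3L:3514107-3515602, 3L:19971656-19973137 and 3R:13847150-13848915, with scores between -0.16 and -0.02. Of the 39 depleted regions of replicate 2, 3 (7.69%) lay inside long gaps, at 2R:10532450-10534186, 2R:15613345-15615049 and 3L:19971549-19973333, each over a depleted region of the combined list named above. The region 3R:13847150-13848915 is the place at which both replicates had an enriched region inside a long gap. There the enriched regions of replicates 1 and 2 covered 1571 and 1742 of its 1766 bases.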

How the results depend on the processing

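Over 39 alternatives, 23 values stayed close to the reported one. For the number of long gaps, close meant within 1.5 times. For the share with a long gap next to them, it meant inside the Wilson interval, which covers counting error only. For the other values it meant a shift smaller than the SD of the 2 replicates. The number of long gaps, 518 as reported, was 311 with a limit of 50000 bases and lay between 474 and 760 otherwise. The share with a long gap next to them was 32.4% with a limit of 20000 bases, 16.7% with 50000, 35.8% with the higher-scoring 50% of regions and 22.1% in replicate 2. Coverage by the replicates was 0.404% with 20000 bases, 0.247% with 50000, 4.71% with the higher-scoring 50%, 0.500% without combined regions narrower than 1301 bases, 0.356% without combined regions met by neither replicate (chosen after seeing the data) and 0.192% for regions wholly inside. Without replicate 1 or replicate 2 it was 0.300% or 0.343%. The median width of bordering regions was 2953 bases in replicate 1, 4920.5 with the higher-scoring 50% and 3018 after merging regions closer than 500 bases, where all regions had medians of 3304, 5530.5 and 3558. Their score percentile was 44.4 in replicate 1 and 42.8 in replicate 2. The cause of these shifts was not tested. No paired analysis was possible because lists of the inputs were not analysed here. Unknown read depth limits what a missing call means.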
